A study of Homo sapiens with 8 samples.

Results

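The cadherins CDH1, CDH2, CDH3, CDH4, CDH11 and CDH13 and their catenin partners CTNNA1, CTNNB1, CTNND1 and JUP were followed in docetaxel sensitive and resistant variants of 2 prostate cancer cell lines. These 10 genes were taken by symbol from 60554 gene rows of a bulk RNA-seq count table per library, and all 10 were among the 20238 genes with enough reads to be tested. DU145 and PC3 are human prostate cancer lines that were established from metastases and were bought from ATCC. There were 4 groups of 2 libraries each, DU145_Sen, DU145_Res, PC3_Sen and PC3_Res. The resistant variants were grown with 10 nM docetaxel, a taxane that stabilises microtubules, and the sensitive variants with 0.1% DMSO, the solvent of the drug. It is not stated whether the drug was still present when these cells were harvested. All 4 groups shared the same basal medium with serum and antibiotics, and total RNA went into libraries by a SMART-seq mRNA kit. Each line is represented by 1 resistant variant, so what belongs to resistance and what belongs to that population cannot be told apart. Separate cultures within a group are nowhere stated. The p-values therefore reflect only how far apart libraries of the same group lie, pooled over the 4 groups in 1 fit. That spread may be technical.

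Classical cadherins are transmembrane proteins that hold neighbouring cells together at adherens junctions by binding the same cadherin on the next cell. Their tails bind beta-catenin or plakoglobin, which in turn bind alpha-catenin, the link to actin, while p120-catenin binds nearer the membrane and keeps the cadherin at the surface. Beta-catenin is also the transcriptional partner of TCF and LEF factors in Wnt signalling. A change from E-cadherin to N-cadherin is called cadherin switching and is a classical sign of epithelial to mesenchymal transition in carcinoma, the prostate included.

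In DU145, resistant cells had far less of the epithelial cadherins CDH1 and CDH3 and less JUP, with no rise of CDH2 that passed the test. In PC3, the same epithelial cadherins rose from a low level, CDH11 and CDH13 rose, and CDH2 and JUP fell. Between the lines, PC3 held almost no CTNNA1 RNA, little CDH1 and CDH3, and large amounts of CDH2 and CDH11. CTNNB1 and CTNND1 passed the test within neither line.

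Total counts ranged from 31685148 to 43045127 per library. Values are CPM, the reads of a gene per 1000000 reads of the TMM-scaled library, and levels of different genes are set beside each other only as CPM per kilobase of annotated exon. Epithelial markers (KRT8, KRT18, KRT19 and EPCAM) were detected in all 4 groups, with summed levels of 2490 to 4180 CPM in DU145 sensitive, 240 to 410 CPM in DU145 resistant, 778 to 892 CPM in PC3 sensitive and 932 to 969 CPM in PC3 resistant libraries. Of 4 leukocyte markers, 1 was at 0 in every library and the sum was 0.225 to 1.01 CPM. The 4 fibroblast markers summed to 4.59 to 34.1 CPM and the 4 endothelial markers to 0.515 to 25.2 CPM. The endothelial sum was 7.34 to 7.91 CPM in PC3 sensitive and 13.7 to 25.2 CPM in PC3 resistant libraries, mostly from PECAM1, an adhesion molecule of endothelium, which rose there by 1.44 (SE 0.30, adjusted p = 0.00433 by edgeR). Its part in the PC3 values was not tested.

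In DU145, 3 of the 10 genes fell and 7 did not pass an adjusted p of 0.05 in edgeR's quasi-likelihood test, where 27.8% of all genes tested were called. In PC3, 4 rose, 2 fell and 4 did not pass, against 35.6% of all genes called. The test of the difference between the lines, the PC3 change minus the DU145 change, called 5 genes, all with the higher value in PC3, against 34.3% of all genes. Between the sensitive variants, 2 genes were higher in PC3, 5 were lower and 3 did not pass, where 57.8% of all genes were called, 28.6% higher and 29.2% lower. The DU145 share was close to that of all genes, and the median log2 fold change of the 10 genes was 0.12 in each line, beside 0.00 and 0.01 for all genes. The sensitive libraries of a line enter several of these comparisons, so their values are not independent of one another.

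**Figure D1:**
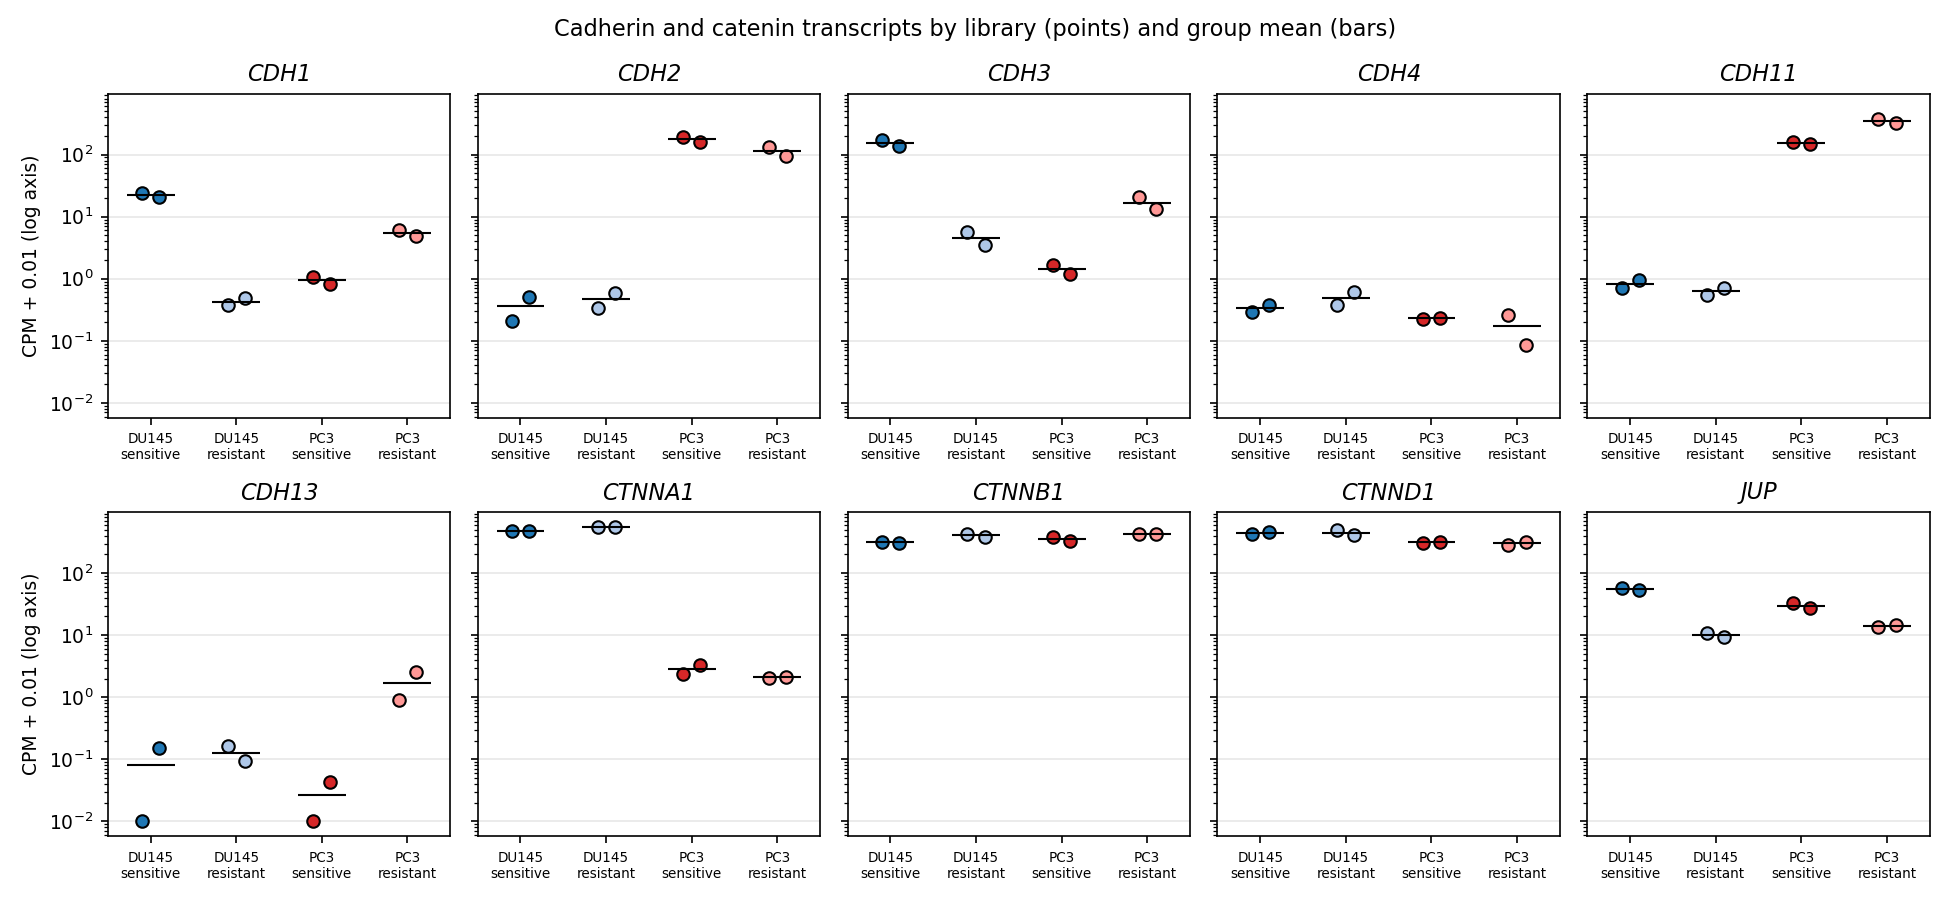
CPM of each gene (log axis, 0.01 added) in the 8 libraries as points, with the group mean as a bar, in DU145 and PC3, sensitive and resistant. CTNNA1 lies at 473 to 559 CPM in DU145 and at 2.06 to 3.34 CPM in PC3, and CDH1 and CDH3 move down with resistance in DU145 and up in PC3.

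CDH1 encodes E-cadherin, the main adhesion molecule of epithelia, and lies on chromosome 16 at 68737292 to 68835537 on the plus strand (GRCh38, as are all coordinates here). Its level was 24.2 and 20.9 CPM in the DU145 sensitive libraries and 0.363 and 0.472 CPM in the resistant ones. It fell by 5.74 on the log2 scale (SE 0.31, adjusted p = 1.05e-06 by edgeR), to 1.85% of the sensitive mean. In bulk libraries such as these, fewer cells with the transcript and less RNA per cell cannot be told apart. In PC3 the level was 1.07 and 0.81 CPM in sensitive and 6.12 and 4.95 CPM in resistant libraries, a log2 fold change of 2.55 (SE 0.27, adjusted p = 5.55e-05 by edgeR). The groups did not overlap in either line, and the PC3 resistant mean still stood at 24.6% of the DU145 sensitive mean.

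CDH3 encodes P-cadherin, found in basal cells of stratified and glandular epithelia including the prostate, and starts 101.1 kb upstream of CDH1 on the same strand (chromosome 16, 68636189 to 68727468). It was the most abundant of the 6 cadherins in DU145 sensitive cells, with 174 and 139 CPM, and had 5.6 and 3.55 CPM in the resistant libraries. The log2 fold change was -5.10 (SE 0.29, adjusted p = 1.56e-06 by edgeR). In PC3 it went from 1.67 and 1.17 CPM to 20.4 and 13.3 CPM, a log2 fold change of 3.56 (SE 0.31, adjusted p = 1.21e-05 by edgeR). As for CDH1, the libraries of each line separated without overlap and in opposite directions.

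The PC3 change minus the DU145 change was 8.29 for CDH1 (SE 0.41) and 8.66 for CDH3 (SE 0.42) on the log2 scale, both with an adjusted p of 4.83e-07 by edgeR. By rank, CDH1 was 113th and CDH3 147th from the lowest fold change of 20238 genes in DU145. Tested genes around the pair were also compared, because the loci adjoin. Of 17 tested genes that start within 500 kb of CDH1, 5 fell and 2 rose in DU145 (median -0.28), and 6 rose in PC3 (median 0.44). The 17 include CDH3 and RP11-615I2.2. Over all genes, 27.8% were called in DU145 and 35.6% in PC3. TANGO6, 106.2 kb downstream, had a log2 fold change of -0.40 in DU145 (adjusted p = 0.0619) and rose by 0.44 in PC3 (adjusted p = 0.0351), and ZFP90, 207.2 kb upstream, -0.94 (adjusted p = 0.00111) and 0.43 (adjusted p = 0.0461). The changes of TANGO6 and ZFP90 were several times smaller than those of the cadherin pair. RP11-615I2.2, a noncoding transcript antisense within CDH3, fell by 4.75 in DU145 (SE 0.88, adjusted p = 0.00257) and had 2.16 in PC3 (SE 1.00, adjusted p = 0.119). It had at most 72 reads in a library, and with the strand setting not given its reads and those of CDH3 cannot be told apart. HAS3, a hyaluronan synthase 368.4 kb downstream that was named after its values were seen, rose by 2.18 in DU145 (SE 0.24, adjusted p = 9.8e-05) and by 1.37 in PC3 (SE 0.23, adjusted p = 0.001).

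CDH2 encodes N-cadherin, the cadherin of neural and mesenchymal cells, and lies on chromosome 18 at 27932879 to 28177946 on the minus strand. PC3 sensitive libraries held 190 and 162 CPM and PC3 resistant libraries 132 and 93.5 CPM, against 0.196 and 0.507 CPM in DU145 sensitive and 0.333 and 0.583 CPM in DU145 resistant libraries. The baseline difference was 8.95 on the log2 scale (SE 0.35, adjusted p = 1.5e-08 by edgeR), ranking 61st of 20238 genes from the highest. Within PC3 the groups did not overlap and CDH2 fell by 0.64 (SE 0.22, adjusted p = 0.0422 by edgeR). This call was lost when PC3_Sen replicate 1 (adjusted p = 0.227), PC3_Sen replicate 2 (0.078) or PC3_Res replicate 2 (0.268) was left out. Within DU145 the libraries overlapped at 7 to 21 reads and the log2 fold change was 0.39 (SE 0.50, adjusted p = 0.605 by edgeR).

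The 250 bases before the main CDH2 start are shown because CDH2 is the gene whose rise defines a cadherin switch, and because E-boxes are the sites that SNAI, ZEB and TWIST repressors of E-cadherin bind. The sequence is from RefSeq (GRCh38.p14), chr18:28177131-28177380 on the minus strand, 5′ to 3′. Both strands were searched for the E-box CACCTG and its reverse complement CAGGTG, which capitals would mark, and this window held no match. Of 35116 RefSeq promoters of that length, 17.5% held one.
CDH2: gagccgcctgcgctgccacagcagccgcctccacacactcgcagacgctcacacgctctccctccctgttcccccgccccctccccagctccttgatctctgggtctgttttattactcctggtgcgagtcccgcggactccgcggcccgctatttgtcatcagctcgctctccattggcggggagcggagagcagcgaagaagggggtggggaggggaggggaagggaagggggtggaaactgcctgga

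CDH11 encodes cadherin 11, a type II cadherin of mesenchymal and bone-forming cells, on chromosome 16 at 64943753 to 65126112 on the minus strand. DU145 sensitive libraries held 0.7 and 0.93 CPM and resistant ones 0.545 and 0.694 CPM, so the highest resistant library lay just under the lowest sensitive one, with a log2 fold change of -0.39 (SE 0.26, adjusted p = 0.322 by edgeR). PC3 sensitive libraries held 162 and 146 CPM and PC3 resistant libraries 368 and 329 CPM. The PC3 groups were well apart, with a log2 fold change of 1.18 (SE 0.14, adjusted p = 0.000143 by edgeR). Among all 20238 genes tested, this was the 3005th highest fold change in PC3. The baseline difference was 7.55 (SE 0.21, adjusted p = 2.5e-09 by edgeR), the 201st highest of all genes tested.

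The low CDH2 and CDH11 values in DU145 are close to the lowest levels that these libraries show for any strong gene. CDH2 stood at 0.271% to 0.805% of its mean over the 8 libraries in the DU145 libraries, and CDH11 at 0.433% to 0.738%. Strong genes are the 2659 genes outside the members that average 100 CPM or more, a mean that CDH2 itself did not reach. Their lowest such share in a DU145 library was 0.278% to 0.466%. In DU145_Sen_1, CDH2 at 0.271% lay below the lowest strong gene at 0.466%, and in the other DU145 libraries it lay above the lowest one. How far such low values reflect transcription in DU145 was not tested.

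CDH4 and CDH13 were rare in all 4 groups. CDH4, or R-cadherin, of retina and other neural tissue, had 3 to 22 reads per library, and no comparison passed the test. CDH13, or T-cadherin, lacks the cytoplasmic tail that binds catenins and is held in the membrane by a lipid anchor. It had 0 and 5 reads in DU145 sensitive, 5 and 3 in DU145 resistant, 0 and 1 in PC3 sensitive, and 40 and 99 in PC3 resistant libraries. The PC3 resistant libraries stood clear of the other 6, with a log2 fold change of 6.47 (SE 1.14, adjusted p = 0.00152 by edgeR) that rests on 1 sensitive read. Summed over libraries and scaled by depth, the PC3 ratio was 105 (exact 95% interval 18.6 to 4180, counting error only). HSBP1 overlaps CDH13 on the same strand with up to 13117 reads, and how reads shared by both were assigned is not stated.

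Per kilobase of exon, the 6 cadherins summed to 31.3 and 25.4 CPM in DU145 sensitive libraries and to 1.08 and 0.842 CPM in resistant ones. CDH3 made up 86.9% and 85.7% of the sum in DU145 sensitive cells and CDH1 12.7% and 13.6%. In PC3 the sums were 34.8 and 30.2 CPM per kilobase in sensitive and 47.5 and 38.8 in resistant libraries. CDH2 led in PC3 sensitive libraries, at 63.6% and 62.4%, followed by CDH11 at 35.1% and 36.4%. In PC3 resistant libraries this order was inverted, with CDH11 at 58.4% and 63.9% and CDH2 at 32.5% and 28.1%. The composition of the DU145 resistant libraries rests on few reads, 12 and 17 CDH1 reads against 11 and 21 CDH2 reads.

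The balance of CDH1 over CDH2, the quantity that cadherin switching refers to, was described per library as the log2 ratio of CPM per kilobase. It was 7.44 and 5.86 in DU145 sensitive libraries and 0.62 and 0.19 in resistant ones. This shift came with a fall of CDH1, while CDH2 stayed at 7 to 21 reads. In PC3 the ratio was -6.98 and -7.14 in sensitive and -3.94 and -3.74 in resistant libraries, a shift the opposite way. CDH2 RNA remained the more abundant of the pair in all 4 PC3 libraries.

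**Figure D2:**
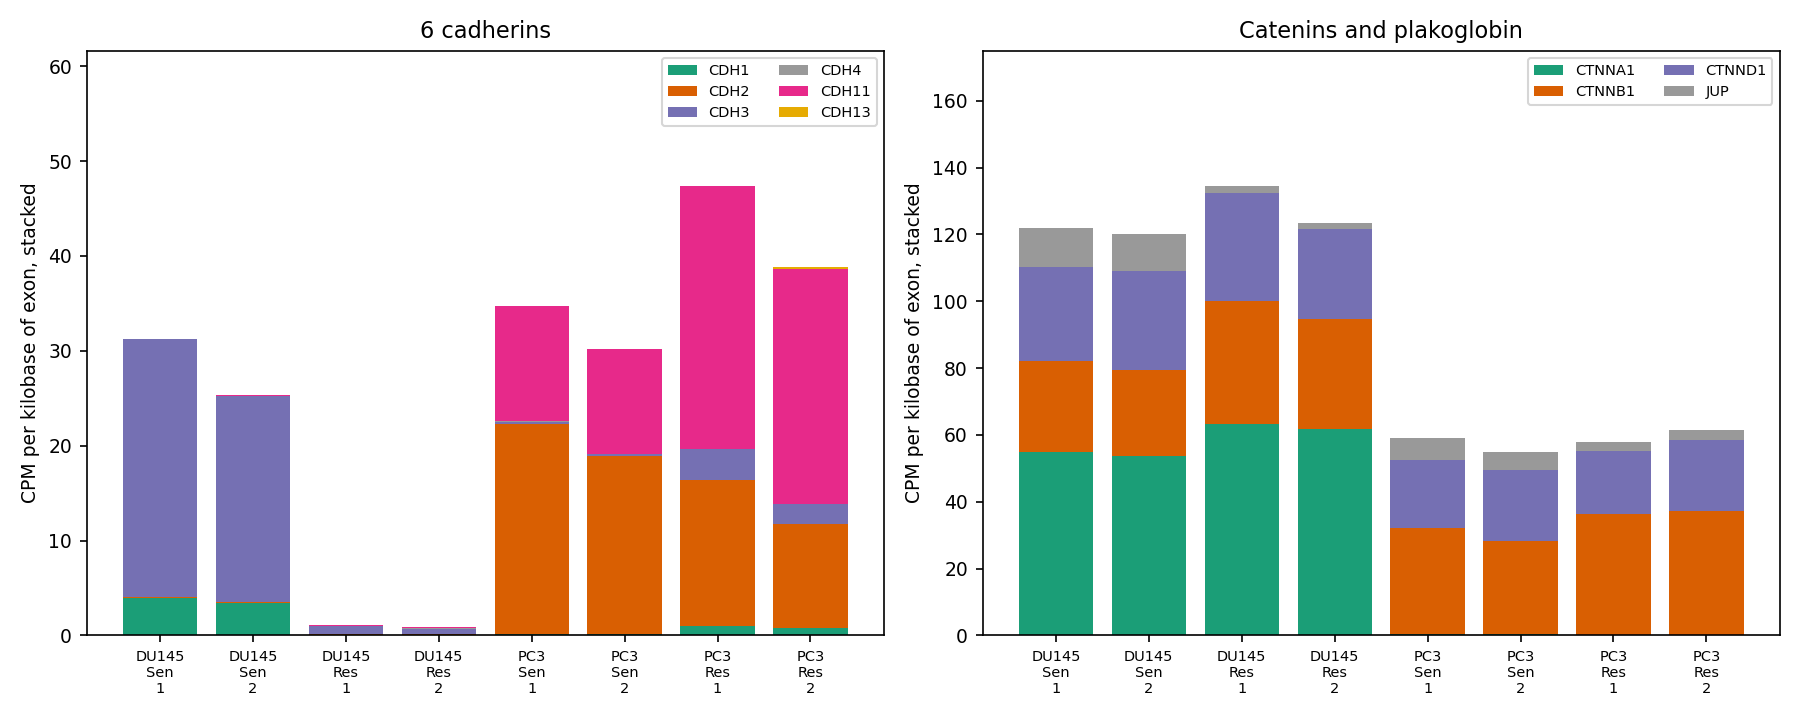
Stacked CPM per kilobase of exon of the 6 cadherins (left) and of the 4 catenin genes (right) in each of the 8 libraries. The cadherin sum falls from 31.3 and 25.4 to 1.08 and 0.842 with resistance in DU145, and the catenin sum in PC3, 55 to 61.3, lacks the CTNNA1 block seen in DU145.

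CTNNA1 encodes alpha-catenin, which joins the cadherin complex to actin, and PC3 is known as a line that lacks it. The gene lies on chromosome 5 at 138610967 to 138935034 on the plus strand. DU145 libraries held 486 and 473 CPM (sensitive) and 559 and 546 CPM (resistant), and PC3 libraries 2.34 and 3.34 CPM (sensitive) and 2.06 and 2.12 CPM (resistant). The lines did not overlap, and the PC3 sensitive mean was 0.592% of the DU145 sensitive mean, a log2 difference of -7.40 (SE 0.20, adjusted p = 2.61e-09 by edgeR). Of all 20238 genes tested, it ranked 331st from the lowest. With resistance its log2 fold change was 0.20 in DU145 (adjusted p = 0.348), and in PC3 it was -0.44 (adjusted p = 0.0986), neither past the test.

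The residual 77 to 103 reads of CTNNA1 in PC3 were close to the lowest level seen for any strong gene there. They came to 0.795% to 1.29% of the mean over the 8 libraries, where the lowest share among 2659 other strong genes was 0.517% to 0.825% in the PC3 libraries. AC034243.1, a noncoding transcript antisense within CTNNA1, had up to 50 reads in a library and was higher in PC3 sensitive than in DU145 sensitive cells by 2.85 on the log2 scale (SE 0.52, adjusted p = 0.000801 by edgeR). Without the strand setting, its reads and those of CTNNA1 cannot be told apart. HSPA9, the mitochondrial HSP70 chaperone that starts 35.3 kb upstream, had 519 CPM in DU145 sensitive and 796 CPM in PC3 sensitive cells, a log2 difference of 0.62 (SE 0.16, adjusted p = 0.00628). Over all genes, 28.6% were higher in PC3 sensitive than in DU145 sensitive cells and 29.2% lower. Of 13 tested genes that start within 500 kb of the CTNNA1 start, 7 were higher in PC3, 1 was lower and the median was 0.62. The lower gene was EGR1, an immediate early transcription factor 145.5 kb upstream, at -7.54 (SE 1.11, adjusted p = 0.000176). Of 9 genes that start within 500 kb beyond the CTNNA1 end, 1 was higher, 2 were lower and the median was -0.06. The lower ones were SIL1, with 24.9 CPM in DU145 sensitive and 7.9 CPM in PC3 sensitive cells (-1.66, SE 0.23, adjusted p = 0.000105 by edgeR), and SLC23A1, below 1 CPM (-2.61, SE 0.56, adjusted p = 0.0021). The higher one, CTB-46B19.2 (5.37, SE 0.46), is also among the 13 genes around the start.

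The 250 bases before a CTNNA1 start (RefSeq, GRCh38.p14, chr5:138753175-138753424, plus strand, 5′ to 3′) are shown as the promoter of the member that separates the lines most among the catenins. They held no such E-box. The start shown lies within the annotated gene, downstream of the gene start from which the neighbour distances were taken.
CTNNA1: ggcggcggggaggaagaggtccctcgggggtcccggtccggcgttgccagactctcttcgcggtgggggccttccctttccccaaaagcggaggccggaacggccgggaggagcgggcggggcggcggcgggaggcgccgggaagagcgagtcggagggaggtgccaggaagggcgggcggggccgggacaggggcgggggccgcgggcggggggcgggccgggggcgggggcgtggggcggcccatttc

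**Figure D3:**
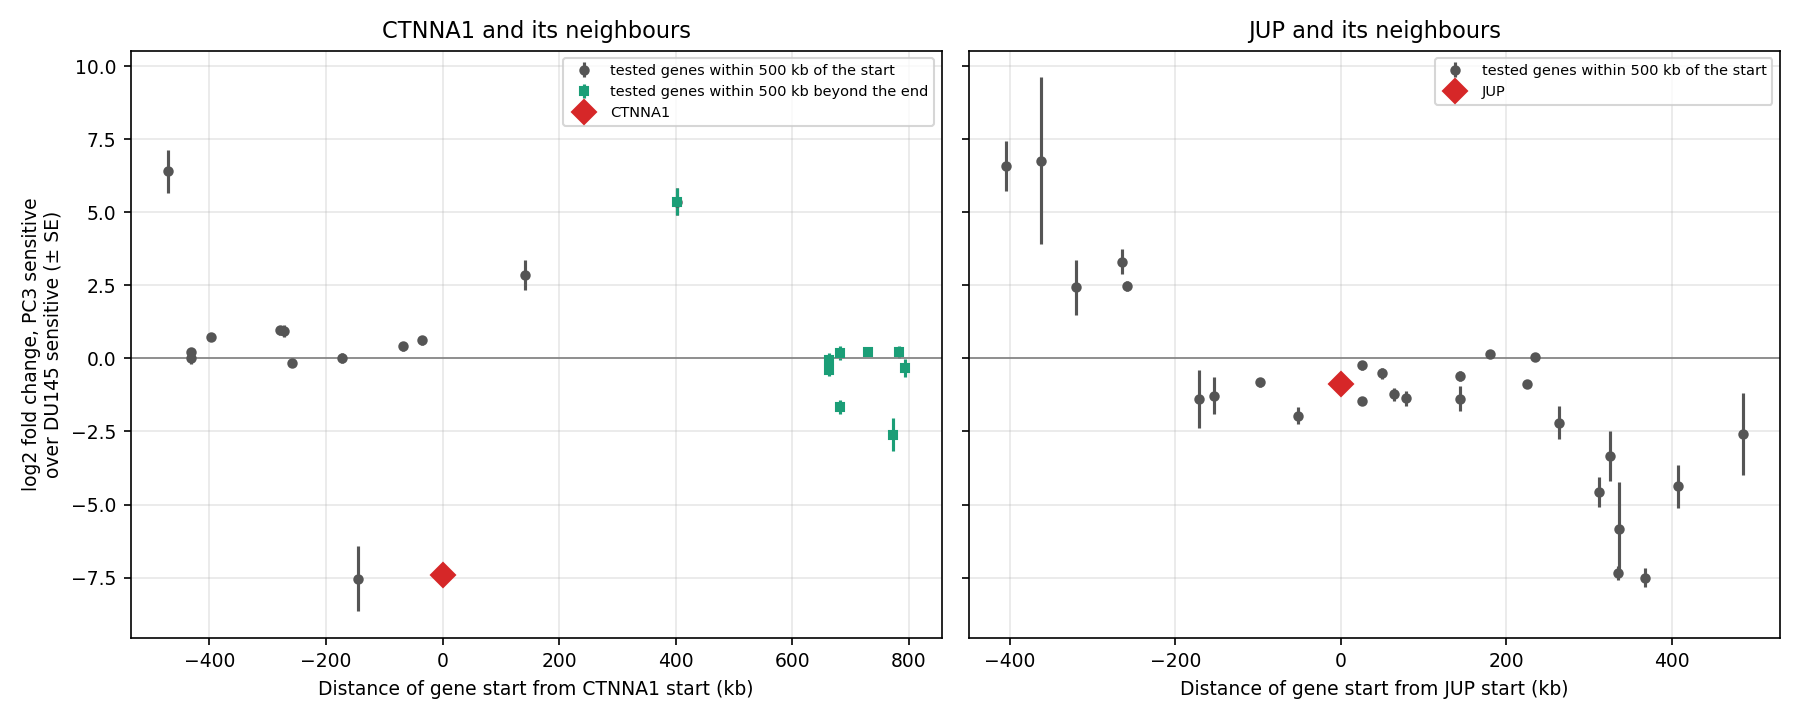
Log2 fold change of PC3 sensitive over DU145 sensitive cells (± SE) for tested genes around CTNNA1 (left) and JUP (right), against the distance of each gene's start from that of CTNNA1 or JUP in kb. CTNNA1 lies at -7.40 while HSPA9, its nearest neighbour, lies at 0.62. Of 27 genes around JUP, 16 are below 0 and past the test, against 29.2% of all genes.

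Of the other alpha-catenins, CTNNA2 had at most 4 reads in a library. CTNNA3, alpha-T-catenin of heart and testis, had 1 and 0 reads in DU145 sensitive libraries, 4 and 5 in DU145 resistant, 419 and 373 in PC3 sensitive and 519 and 503 in PC3 resistant libraries. The ratio of PC3 sensitive to DU145 sensitive reads, scaled by depth, was 885 (exact 95% interval 158 to 35000, counting error only). Per kilobase, CTNNA3 in PC3 sensitive cells was 2.35 times CTNNA1 in the same cells and 1.39% of CTNNA1 in DU145 sensitive cells. CTNNAL1, an alpha-catenin-like protein, rose by 0.67 (adjusted p = 0.00921) with DU145 resistance and by 0.65 (adjusted p = 0.00816) with PC3 resistance.

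CTNNB1 encodes beta-catenin (chromosome 3, 41194741 to 41260096, plus strand) and was abundant in all libraries. Its level was 319 and 305 CPM in DU145 sensitive, 433 and 386 in DU145 resistant, 375 and 329 in PC3 sensitive, and 425 and 434 in PC3 resistant libraries. Both resistant libraries of each line were above both sensitive ones, yet the log2 fold changes of 0.39 (SE 0.14, adjusted p = 0.0539) and 0.29 (SE 0.14, adjusted p = 0.127) did not pass by edgeR. The DU145 value passed under several alternatives, among them DESeq2 (adjusted p = 0.0379), a filter of at least 1 CPM in 4 libraries (0.0427), and leaving out DU145_Res replicate 2 (0.0484). The baseline difference of 0.17 did not pass (adjusted p = 0.299). ULK4 overlaps CTNNB1 on the other strand, with at most 268 reads in a library.

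CTNND1 encodes p120-catenin (chromosome 11, 57753243 to 57819546, plus strand). It held 425 and 452 CPM in DU145 sensitive, 490 and 409 in DU145 resistant, 307 and 321 in PC3 sensitive, and 284 and 323 in PC3 resistant libraries. Sensitive and resistant libraries overlapped in both lines, at log2 fold changes of 0.04 (adjusted p = 0.887) and -0.05 (adjusted p = 0.834). At baseline it was lower in PC3 by 0.48 on the log2 scale (SE 0.14, adjusted p = 0.0145 by edgeR). That call was lost without DU145_Sen replicate 2 (adjusted p = 0.0723), PC3_Sen replicate 1 (0.109) or PC3_Sen replicate 2 (0.0728).

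JUP encodes plakoglobin, or gamma-catenin, which serves in adherens junctions and desmosomes (chromosome 17, 41754604 to 41786931, minus strand). It held 57.3 and 53.8 CPM in DU145 sensitive and 10.9 and 9.27 CPM in DU145 resistant libraries, a log2 fold change of -2.46 (SE 0.17, adjusted p = 5.73e-06 by edgeR). In PC3 it held 32.8 and 27.3 CPM in sensitive and 13.4 and 14.6 CPM in resistant libraries, a log2 fold change of -1.10 (SE 0.17, adjusted p = 0.000597 by edgeR). It was the one member called lower in both lines, and both calls were kept under all alternatives tried. The groups did not overlap in either line, and the fall was larger in DU145 (difference 1.36, SE 0.23, adjusted p = 0.00139). At baseline PC3 had less, by 0.89 on the log2 scale (SE 0.16, adjusted p = 0.00085).

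The baseline difference of JUP stood among neighbours that were also lower in PC3. Between the sensitive variants, 29.2% of all genes were lower in PC3 and 28.6% higher. Of 27 tested genes that start within 500 kb, 16 were lower and 4 higher in PC3 sensitive than in DU145 sensitive cells, with a median of -1.27. KAT2A, a histone acetyltransferase, at -7.35 and RAB5C, an endosomal GTPase, at -7.51 were the lowest of them, 334.4 and 368.1 kb away, and were named after their values were seen. With resistance the median of these neighbours was -0.19 in DU145 and -0.20 in PC3.

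The JUP promoter is shown because JUP fell in both lines and because the entry shown held an E-box. RefSeq had 11 entries for 5 members (CDH2, CDH4, CTNNA1, CTNNB1 and JUP). Of these, the JUP entry shown and 1 of CDH4 held an E-box, near the 17.5% of all 35116 promoters. The other JUP entry, chr17:41786712-41786961, held no match. The sequence is the 250 bases before the downstream start (GRCh38.p14, chr17:41785977-41786226, minus strand, 5′ to 3′). Capitals mark CACCTG, beginning 54 bases before the start, and its reverse complement CAGGTG, beginning 43 bases before it. A match describes these letters and not a bound site. CDH1, CDH3, CDH11, CDH13 and CTNND1 had no entry.
JUP: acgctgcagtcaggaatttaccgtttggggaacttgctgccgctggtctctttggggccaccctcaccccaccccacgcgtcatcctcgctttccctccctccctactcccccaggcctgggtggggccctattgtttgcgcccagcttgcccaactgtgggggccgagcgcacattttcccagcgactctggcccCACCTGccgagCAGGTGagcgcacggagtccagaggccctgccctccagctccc

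**Figure D4:**
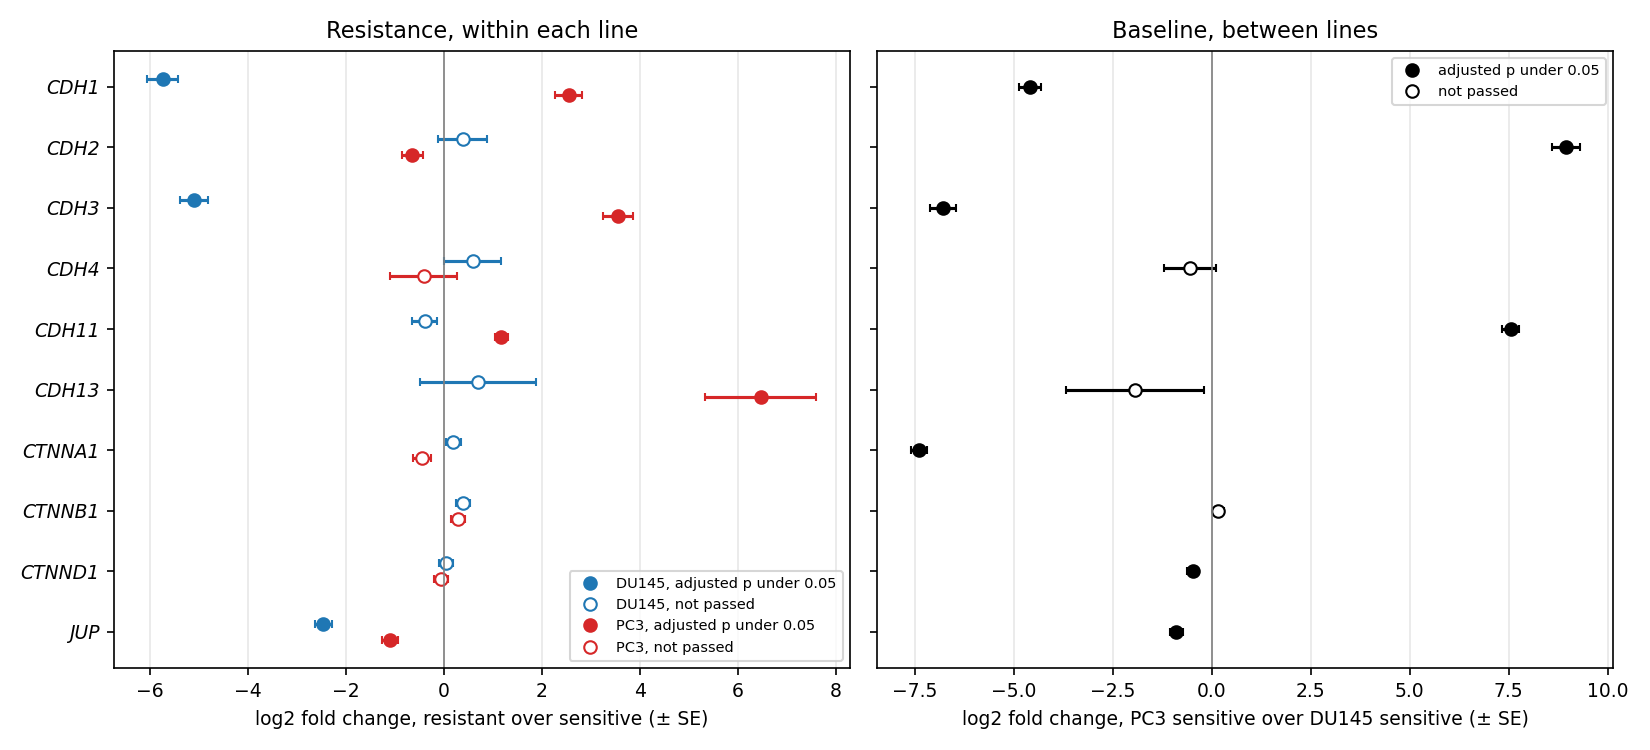
Log2 fold change (± SE) of the 10 genes, resistant over sensitive in DU145 (blue) and PC3 (red) on the left and PC3 sensitive over DU145 sensitive on the right. Filled points have an adjusted p under 0.05, and CDH1 and CDH3 lie at -5.74 and -5.10 in DU145 against 2.55 and 3.56 in PC3.

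Other cadherins of the classical and type II classes were counted from a list of 16, of which 10 were tested. In DU145, 1 fell and 9 did not pass, where 27.8% of all genes tested were called. CDH24, a type II cadherin, fell by 0.66 (SE 0.16, adjusted p = 0.0102) and, at 5.08 CPM per kilobase, made up 79.0% of the summed level of all 16 tested cadherins, members included, in DU145 resistant cells. In PC3, 3 rose and 1 fell, against 35.6% of all genes called. CDH6, the kidney cadherin, rose from 22 and 10 reads to 2690 and 1380 (log2 fold change 6.56, SE 0.48, adjusted p = 4.24e-06). CDH22 went from 0 and 1 reads to 196 and 167, a ratio of 275 (exact 95% interval 49 to 10900), and CDH12 from 0 reads in both sensitive libraries to 84 over the resistant ones, at least 21.2-fold higher against a floor of 3 reads over the group. CDH7 fell by 0.87 (SE 0.20, adjusted p = 0.00769). The PC3 resistant cells thus gained CDH1, CDH3, CDH6, CDH11, CDH12, CDH13 and CDH22 RNA, of which CDH11 and CDH6 were the most abundant per kilobase.

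Of 9 tested genes listed as other catenins and armadillo relatives, 2 rose and 1 fell in DU145, and 3 rose and 1 fell in PC3. The 2 that rose in DU145 were alpha-catenin relatives. They were CTNNA3, at few reads (2.93, SE 0.86, adjusted p = 0.0272 by edgeR), and CTNNAL1, which was also 1 of the 3 that rose in PC3. Over all genes, 27.8% were called in DU145 and 35.6% in PC3. PKP2, a desmosomal plakophilin, fell by 3.12 in DU145 (SE 0.28, adjusted p = 2.93e-05). CTNND2, delta-catenin of neurons, rose in PC3 from 4 and 3 reads to 1029 and 603, a log2 fold change of 7.40 (SE 0.49, adjusted p = 1.98e-06). ARVCF, a p120-catenin relative, rose there by 1.15 (SE 0.21, adjusted p = 0.00207) and PKP3, another plakophilin, fell by 0.90 (adjusted p = 0.00145).

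Of 14 tested partners of the adherens junction, 6 rose and 2 fell in DU145, and 1 rose and 3 fell in PC3. Over all genes, 27.8% were called in DU145 and 35.6% in PC3. AFDN, or afadin, which links nectins to actin, rose in both lines, by 1.53 (SE 0.18, adjusted p = 0.000169) and 0.94 (SE 0.18, adjusted p = 0.0025). VCL, or vinculin, which binds alpha-catenin under tension, rose in DU145 by 0.92 (adjusted p = 0.00167) and had a log2 fold change of -0.26 in PC3 (adjusted p = 0.224). PLEKHA7, which ties p120-catenin to microtubules, fell by 2.41 in DU145 (SE 0.23, adjusted p = 3.66e-05) and fell by 1.57 in PC3 (SE 0.22, adjusted p = 0.000371). Of 7 genes for cadherin shedding and endocytosis, 2 fell in DU145 and 4 in PC3, while the others did not pass. The shares of all genes called were again 27.8% and 35.6%. ADAM10, the main sheddase of E- and N-cadherin, fell by 0.86 in DU145 (adjusted p = 0.00356) and had -0.40 in PC3 (adjusted p = 0.0876).

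Of 15 genes that degrade beta-catenin or act with it in the nucleus, 4 rose and 1 fell in DU145. In PC3, 4 rose and 2 fell. These counts were near the shares of all genes called, 27.8% in DU145 and 35.6% in PC3. LEF1, a DNA-binding partner of beta-catenin, went from 67 and 47 reads to 228 and 401 in DU145 (log2 fold change 2.49, SE 0.31, adjusted p = 0.000245). In PC3 it went from 3 and 2 reads to 526 and 408 (7.08, SE 0.46, adjusted p = 1.8e-06). AXIN2, a scaffold of the destruction complex and a target of Wnt signalling, fell by 3.47 in DU145 (SE 0.38, adjusted p = 0.000105) and rose by 1.21 in PC3 (SE 0.34, adjusted p = 0.0193).

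Of 9 E-cadherin repressors, 1 rose and 1 fell in DU145, and 2 rose and 3 fell in PC3. Over all genes, 27.8% were called in DU145 and 35.6% in PC3. ZEB2, a zinc finger repressor of CDH1, rose in DU145 from 3.39 and 2.54 CPM to 14.6 and 13 CPM (log2 fold change 2.22, SE 0.29, adjusted p = 0.000361) and fell in PC3 from 6.24 and 7.32 CPM to 2.62 and 1.54 CPM (-1.70, SE 0.30, adjusted p = 0.00141). KLF8 was the 1 listed repressor that fell in DU145 (-1.62, SE 0.41, adjusted p = 0.0133 by edgeR). It did not pass in PC3 (-0.49, adjusted p = 0.584 by edgeR). ZEB1 passed in neither line, at 0.16 (adjusted p = 0.609) and -0.32 (adjusted p = 0.274). TWIST2, a basic helix-loop-helix factor, had 73 and 64 reads in PC3 sensitive and 2 and 1 in PC3 resistant libraries (-5.78, SE 0.40, adjusted p = 2.78e-06). SNAI2, or Slug, rose in PC3 by 0.89 (SE 0.31, adjusted p = 0.0452), the opposite direction to ZEB2 and TWIST2. SNAI3 also rose there, from 10 and 5 reads to 33 and 41 (1.90, SE 0.59, adjusted p = 0.0285 by edgeR).

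Of 6 tested epithelial activators and splicing factors, 4 fell in DU145 and 4 rose in PC3. Over all genes, 27.8% were called in DU145 and 35.6% in PC3. The list medians were -1.77 and 2.54 beside 0.00 and 0.01 for all genes. ESRP1, a splicing factor of epithelial cells, went from 85 and 208 reads to 15 and 25 in DU145 and from 24 and 12 reads to 2677 and 2010 in PC3. Its log2 fold changes were -2.83 (SE 0.45, adjusted p = 0.00105) and 6.61 (SE 0.47, adjusted p = 3.09e-06). OVOL2, a repressor of ZEB genes in epithelia, had -3.56 (SE 0.70, adjusted p = 0.00382) and 4.28 (SE 0.57, adjusted p = 0.000262), and ELF3, an epithelial ETS factor, -3.60 (SE 0.27, adjusted p = 9.27e-06) and 0.80 (SE 0.26, adjusted p = 0.0369). ESRP2, related to ESRP1, did not share the PC3 rise. It fell by 0.71 in DU145 (SE 0.19, adjusted p = 0.0166 by edgeR) and had -0.47 in PC3 (adjusted p = 0.0718). GRHL1 (0.28, adjusted p = 0.483) and GRHL3 (-0.07, adjusted p = 0.965) did not pass in DU145. GRHL3 was 1 of the 4 that rose in PC3 (5.70, SE 1.78, adjusted p = 0.0319 by edgeR). That call rests on few reads, 0 in both sensitive libraries and 10 and 5 in the resistant ones. Of the 4 epithelial markers, 3 fell in DU145. KRT8 fell by 5.88 (SE 0.30, adjusted p = 8.24e-07), KRT18 fell by 2.65 (adjusted p = 0.000475) and KRT19 fell by 1.28 (adjusted p = 0.000301), while EPCAM averaged 20.8 CPM in sensitive and 18.1 CPM in resistant cells (-0.20, adjusted p = 0.662). In PC3 the 4 markers did not pass, with KRT8 at 0.53 (adjusted p = 0.12). The part of the cytokeratin change in the cadherin values was not tested.

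**Figure D5:**
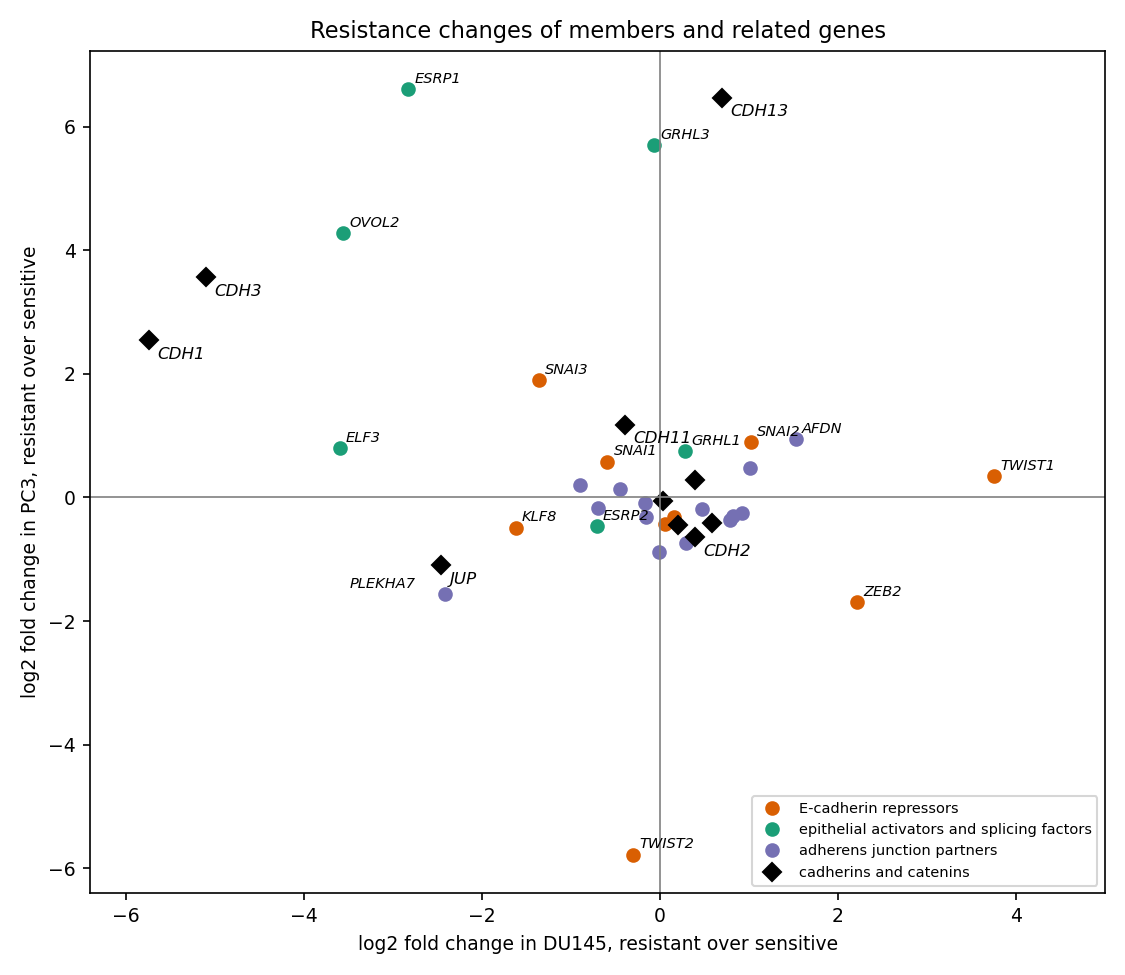
Log2 fold change with resistance in DU145 (x axis) against that in PC3 (y axis) for the 10 genes (black), tested E-cadherin repressors (orange), epithelial activators and splicing factors (green) and adherens junction partners (purple). CDH1, CDH3, ESRP1, OVOL2 and ELF3 lie at upper left, ZEB2 at lower right (2.22 and -1.70) and JUP and PLEKHA7 at lower left.

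The genes whose levels over the 8 libraries lay nearest to those of a member were found by the root mean square difference of centred log2(CPM + 1) among genes averaging 10 CPM or more. For CDH1 these were DTX2 (0.427), C1QTNF6 (0.507) and CD24 (0.586), of 10269 genes. For CDH3 they were RNF43 (0.759), CNTN1 (0.797) and CD24 (0.827), and for CDH2 SYT16 (0.325), FBN2 (0.334) and LOXL1 (0.367). CD24, a surface glycoprotein of epithelial progenitors, averaged 278 CPM in DU145 sensitive, 24.9 in DU145 resistant, 15.9 in PC3 sensitive and 72.8 in PC3 resistant cells. For CTNNA1 the nearest was PTRF, a caveolar coat protein (0.248), with 724 and 820 CPM in the DU145 groups and 3.51 and 2.26 CPM in the PC3 groups.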

How the data were processed

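Bulk RNA-seq of 8 libraries was analysed. The paper's text reports single cell and not bulk libraries. The authors' deposited values are raw gene counts with no scaling. The submitters' processing notes name Bowtie and hg38. Counter, annotation release and strandedness are not given in the sources consulted. Groups and replicate numbers were taken from the sample labels.

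Genes were filtered with filterByExpr by group, which kept 20238 of 60554, and scaled by TMM (factors 0.951 to 1.038). One model with the 4 group means covered all 8 libraries (edgeR 4.0.16, R 4.3.3, 4 residual degrees of freedom, common biological coefficient of variation 17.1%). Contrasts were called at a Benjamini-Hochberg adjusted p under 0.05 over all genes tested, from quasi-likelihood F statistics. SE is |log2 fold change| over √F. Positions and exon lengths came from GENCODE 44. DESeq2 1.42.0 and other settings were tried as alternatives. Scripts were tested on simulated data.

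The 10 genes and the related lists were chosen with earlier results of these data known. Besides the members, the genes open to naming were up to 4 per list with the largest change past the threshold in a contrast and up to 2 that did not pass. The nearest 6 neighbours of a member and the 3 genes nearest in pattern to CDH1, CDH2, CDH3 and CTNNA1 were added. The text names fewer than these rules allow. It leaves out list genes with large baseline differences, among them TWIST1 (11.46) and PKP1 (8.74). Library totals of 31685148 to 43045127 limit the precision of genes with few reads, and replicates differed by more than sampling noise (chi-square per degree of freedom 20.8 to 55).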

Additional observations from a re-analysis of the deposited data

Results flagged for a closer look

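The change with resistance differed between the lines for 5 of the 10 genes, tested as the PC3 change minus the DU145 change on the log2 scale in edgeR's quasi-likelihood test with Benjamini-Hochberg adjustment over all genes, where 34.3% of all genes were called. For CDH1 the difference was 8.29 (SE 0.41, adjusted p = 4.83e-07) and for CDH3 8.66 (SE 0.42, adjusted p = 4.83e-07), with a fall in DU145 and a rise in PC3 for both, in all libraries of both lines. For CDH11 it was 1.57 (SE 0.30, adjusted p = 0.0024), with a rise called in PC3 and no call in DU145. For JUP it was 1.36 (SE 0.23, adjusted p = 0.00139), with a fall called in both lines and the larger fall in DU145.

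For CDH13 the difference was 5.77 (SE 1.95, adjusted p = 0.0417), and it rests on few reads, with 0 to 5 per library outside the PC3 resistant group. It was not called without DU145_Sen replicate 2 (1.35, adjusted p = 0.913), DU145_Res replicate 2 (5.36, 0.0646), PC3_Sen replicate 1 (4.86, 0.106), PC3_Sen replicate 2 (8.27, 0.0528) or PC3_Res replicate 2 (4.85, 0.101).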

How the results depend on the processing

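All calls for CDH1, CDH3, CDH11 and JUP, the PC3 rise of CDH13 and the baseline difference of CDH2 and CTNNA1 were kept under every alternative tried (RLE scaling, DESeq2, other filters, a fit on the compared libraries alone, an adjusted p under 0.01 and each library left out), where the gene was tested. The members called higher in DU145 were 0 in edgeR (1 at an unadjusted p under 0.05) and 1, CTNNB1, with DESeq2 and with 1 CPM in at least 4 libraries. Those called lower in PC3 were 2, and 1 with that filter (CDH2 -0.59, adjusted p = 0.0634) or at an adjusted p under 0.01. Without length correction the mean log2 CDH1 over CDH2 in DU145 resistant cells was -0.08 in place of 0.40.

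The labels do not say that a replicate number marks a shared culture or day, so the fit without pairing was kept. Deviations of same-numbered libraries correlated at 0.492 in DU145 and 0.148 in PC3 across genes, with 2 pairs per line. With a replicate block, members higher in DU145 were 1 (CTNNB1 0.39, adjusted p = 0.0223), and members with the lower effect in PC3 were 1 in place of 0 (CTNNA1 -0.64, adjusted p = 0.0406). The block changed no other call of a member. Over all genes it moved the DU145 calls from 2513 to 3228 higher and from 3120 to 3794 lower.

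With each library left out in turn, members called higher in DU145 ranged from 0 to 1 (without DU145_Res replicate 2, CTNNB1 0.50), lower in DU145 stayed at 3, and lower in PC3 ranged from 1 to 2. Members higher in PC3 stayed at 4. The difference between lines called 4 to 5 higher and 0 to 1 lower (without PC3_Sen replicate 1, CTNNA1 -0.88, adjusted p = 0.0348). The baseline called 2 higher and 4 to 5 lower. Of values never called, those that changed sign ranged from -0.12 to 1.21 for CDH2 in DU145, -0.25 to 5.11 for CDH13 in DU145, -0.11 to 0.19 for CTNND1 in DU145, -0.14 to 0.05 for CTNND1 in PC3, -1.49 to 0.16 for CDH4 in PC3, -0.24 to 0.06 for the CTNND1 difference and -4.43 to 2.47 for CDH13 at baseline. Genes with few reads, CDH4 and CDH13 and the DU145 values of CDH2, are limited by depth, and a smaller change there would not be detectable.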
